A study of Drosophila melanogaster with 4 samples.

Results

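The Sox family of Drosophila comprises 8 transcription factor genes, D (Dichaete), SoxN, Sox14, Sox15, Sox21a, Sox21b, Sox100B and Sox102F. They were looked up by exact symbol in the authors' deposited table of genes that hold binding peaks of the homeodomain transcription factor Prospero. The table held 1510 unique gene identifiers, and 4 of the 8 Sox genes were among them. The profiles came from brains of 3rd instar larvae by targeted DamID, in which Dam, an adenine methylase from bacteria, is tied to a DNA-associated protein and leaves methyl marks at GATC sites where that protein sits. All groups were expressed under the GMR71C09-GAL4 driver with temperature-sensitive Gal80, and they carried full-length Prospero (Dam-ProsFL), a Prospero form labelled ΔN7 (Dam-Pros∆N7), HP1a (Dam-HP1a), or the methylase without a fusion partner (Dam-ctr), and the design text gives 3 biological replicates for every group. The driver decides which cells are profiled, and DNA was extracted from whole brains. The series title speaks of neurons and neural precursors in the central brain, and no more exact account of the cells with an active driver is at hand.

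Sox proteins bind DNA through a single HMG box, a domain that sits in the minor groove and bends the helix. The family is divided into groups by the sequence of that box. Some group B factors, though not all, are known for holding neural progenitors in a progenitor state, in flies as in vertebrates. Group B factors often act together with POU and homeodomain partners. Prospero is handed to the daughter cells of neuroblasts, the neural stem cells, where it is known to switch off progenitor genes and to switch on genes of differentiation. In the fly, D, SoxN, Sox21a and Sox21b form group B, while Sox14 belongs to group C, Sox102F to group D, Sox100B to group E and Sox15 to group F.

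The values available for each gene were its presence in the table and the number of entries it had there. Heights and positions of peaks and values of single replicates are not part of the table, and the Prospero form behind it is not stated in the labels. Sequencing depth is unknown, no spread between replicates could be computed, and no test was made on the members. The table may have been received with some rows left out, so "not listed" refers to the rows that were analysed.

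Among group B genes, 3 of 4 were listed. D (FBgn0000411), a factor of the embryonic neuroectoderm that also takes part in the temporal series of larval neural progenitors, had 1 gene entry. Sox21a (FBgn0036411), known for its part in the differentiation of intestinal stem cell progeny, and Sox21b (FBgn0042630) also had 1 gene entry each. SoxN, which acts alongside D in the formation of neuroblasts in the embryo, was not listed.

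Of the other groups, 1 of 4 genes was listed. This was Sox102F (FBgn0039938), the fly member of group D, which has been linked to Wnt signalling and to neurons. Sox14, an ecdysone-induced factor needed for the pruning of dendrites at metamorphosis, was not in the table. Neither were Sox100B, the relative of vertebrate Sox9, and Sox15, a factor of the wing hinge and of external sense organs. None of the 4 listed genes had an entry under a transcript identifier.

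The background for these counts was the share of protein-coding genes (those on the arms of the chromosomes) that the table named, which was 1082 of 13946, or 7.76% (exact Clopper-Pearson 95% interval 7.32 to 8.21, covering counting error only). At that share, 0.621 of the 8 Sox genes would be listed, against the 4 found. The same share gives 0.310 listed genes in group B and 0.310 in the other groups. The counts of 3 of 4 and 1 of 4 rest on so few genes that 2 entries make up the whole difference between the groups, and whether the groups differ was not tested.

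Listed genes of the whole table tended to be long, and the length of a gene is its span in the RefSeq annotation of the Release 6 plus ISO1 MT assembly. Length did not separate listed from unlisted Sox genes. The listed members were D at 3011 bp, Sox21a at 4638 bp, Sox21b at 18920 bp and Sox102F at 33958 bp. The unlisted members were SoxN at 4026 bp, Sox14 at 6377 bp, Sox15 at 11024 bp and Sox100B at 18155 bp. The shortest and the longest Sox gene were thus both listed, and the 4 unlisted ones lay between them.

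All protein-coding genes were then split into 10 deciles of length, and each Sox gene was read against the listed share of its own decile. D and SoxN fell in decile 7, where 5.30% of genes were listed, and they differed in listing although their lengths were close. Sox21a and Sox14 shared decile 8, with 6.81% listed, and differed as well. In the longest decile 26.3% of genes were listed (24.0 to 28.6), and there Sox21b and Sox102F were listed while Sox100B was not. Sox15 stood in decile 9, with 12.5% listed. Summed over the members' deciles, these shares give 1.16 listed Sox genes, of which 0.437 in group B and 0.719 in the other groups. All 8 genes stood in the upper 4 deciles of length, and a listed gene of group B (Sox21b) and the listed gene outside it (Sox102F) were both in the longest one.

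**Figure D1:**
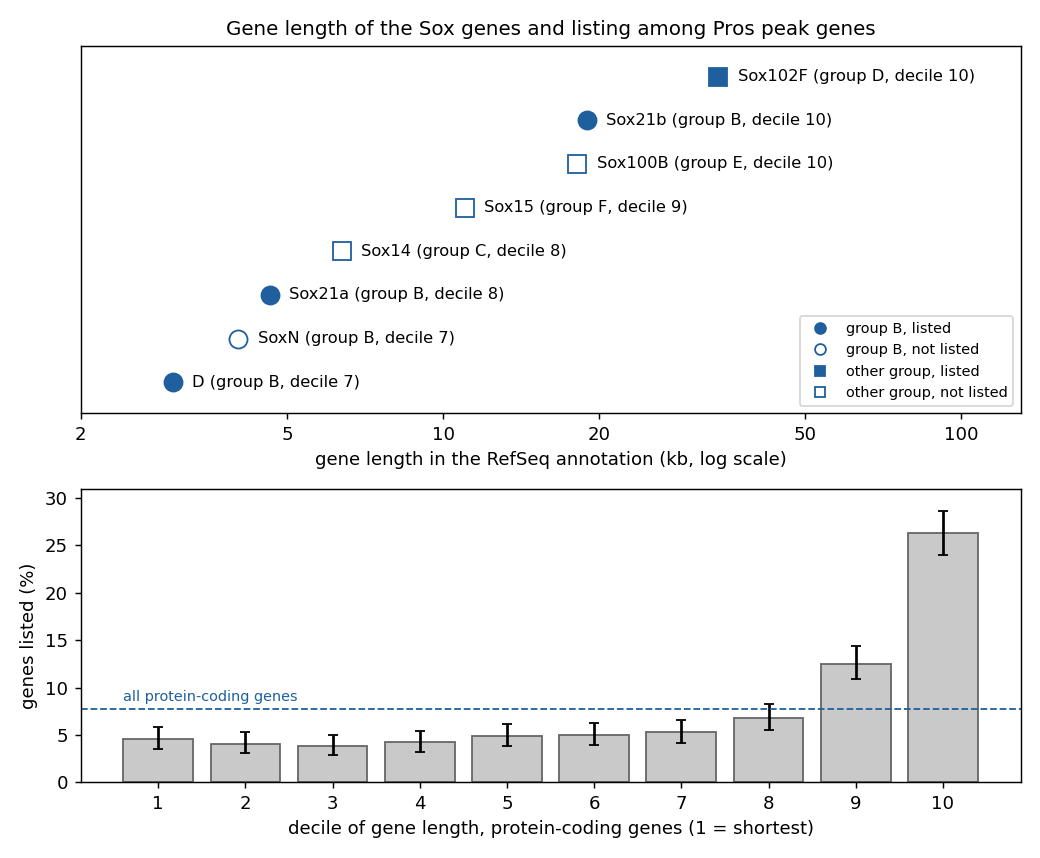
The upper panel gives the length of each Sox gene in kb on a log axis, with circles for group B, squares for the other groups, filled symbols for listed genes and open symbols for genes not listed. The lower panel gives the percentage of protein-coding genes listed in each decile of length with exact 95% intervals, and the dashed line is the share of all protein-coding genes, 7.76%. D at 3011 bp and Sox102F at 33958 bp are the listed extremes, and the open symbols lie between them, with Sox14, Sox15 and Sox100B next to one another.

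The 3 listed group B genes are neighbours. In the annotated order on arm 3L, Sox21a is followed by Sox21b, then by the long non-coding RNA gene lncRNA:CR45887, and then by D, with no other protein-coding gene between the 3 Sox genes. Sox21a and Sox21b are separated by 4.29 kb in that annotation. D stands further off, with 40.5 kb between it and lncRNA:CR45887, which was not listed, and 7.63 kb between it and nan, a channel gene on its other side that was not listed either. On the outer side of Sox21a, at 5.43 kb, lies Fbp1, a larval fat body protein gene, which was listed.

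Among protein-coding genes, Fbp1, Sox21a, Sox21b and D therefore formed an unbroken run of 4 listed genes. The table held 615 such runs in all, counting single genes, and 44 of them had at least 4 genes. Those 44 runs held 212 of the 1082 listed protein-coding genes. The next listed protein-coding gene beyond D was fz, 8 steps along the protein-coding gene order. Because the table names genes and gives no positions, the number of peaks behind the 3 group B entries cannot be counted. With the 3 neighbours counted as 1 locus, a setting chosen after the table was seen, 2 of 6 loci of the family were listed. In group B it was 1 of 2 loci, against 1 of 4 in the other groups. No background share was computed for loci, and the 7.76% is a share of single genes.

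SoxN, the group B gene outside that cluster, had listed genes near it in the gene order on both sides, though not in distance. On one side its nearest neighbour was CG42710 (FBgn0261627), a gene with no given name, which was listed and lies 43.1 kb from SoxN. On the other side lncRNA:CR45365, at 22.3 kb, was not listed, and the next gene, asRNA:CR45260 (FBgn0266798), was listed under a gene and a transcript identifier. Of the 5 annotated genes on each side, 5 of 10 were listed, namely LManV, a lysosomal mannosidase family gene, CG42710, asRNA:CR45260, CG32987 and CG32988. Of all annotated genes, 8.45% were listed, and the share in such windows around other unlisted genes was not computed. SoxN thus stood unlisted with listed genes on both sides in the gene order, and it is flanked by wide gaps without annotated genes.

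Sox102F was listed on its own. None of the 2 annotated genes on either side was listed, including MED26, a Mediator subunit gene at 11.5 kb, and the forkhead gene fd102C at 2.59 kb. The nearest listed protein-coding genes were ey, the Pax6 factor of eye and brain, 3 steps away, and fuss, 7 steps away on the other side. Over the whole table, 852 of 1082 listed protein-coding genes (78.7%) had at least 1 listed gene among the 2 annotated genes on each side, and 230 (21.3%), Sox102F among them, had none. Of unlisted protein-coding genes, 14.1% had a listed gene in that window, and SoxN was one of these.

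The other unlisted members had no listed gene among the 5 annotated genes on either side. Within 2 annotated genes on each side, 11047 of 12864 unlisted protein-coding genes (85.9%) had none. The share for 5 genes on each side was not computed. Sox14 was 35 protein-coding genes from the nearest listed gene on one side (ken) and 57 from the one on the other (CG30419). It lay within a stretch of 91 consecutive unlisted protein-coding genes on arm 2R. Of the 621 unlisted stretches, 11 were at least that long, a count of stretches in which each long one holds many genes. Sox15, also on 2R, was 20 steps from mam, the co-activator of Notch, and 38 from phyl. Its stretch had 57 genes, and 50 of the 621 stretches were at least that long. Sox100B on arm 3R was 6 steps from Ktch and 14 from Ptx1, a homeobox gene. The median distance from an unlisted protein-coding gene to the nearer listed one was 9 steps, so Sox14 and Sox15 lay beyond it, and Sox100B and SoxN within it. Counted per gene, 5.53% of unlisted protein-coding genes were at least as far from a listed one as Sox14. That share was 19.8% for Sox15 and 64.5% for Sox100B.

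**Figure D2:**
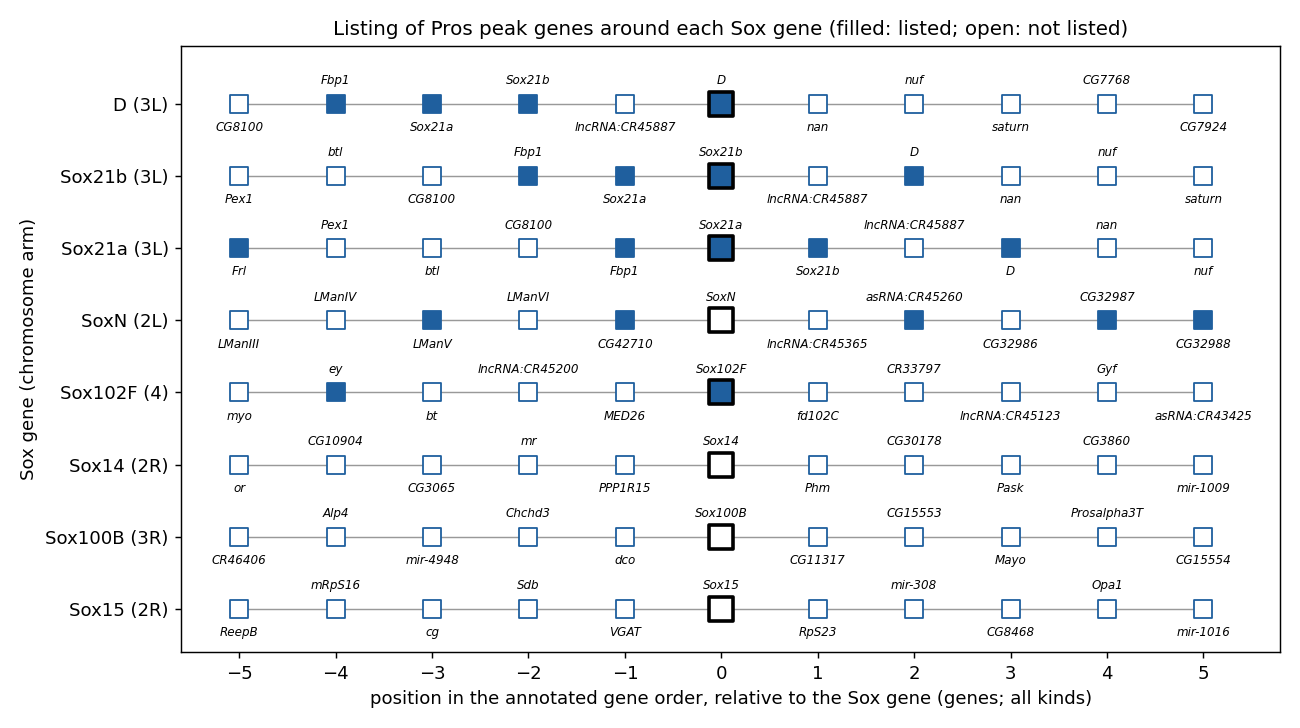
Each row shows a Sox gene with the 5 annotated genes of all kinds on each side, placed by gene order and not by distance. Filled squares are listed genes, open squares are genes not listed, and the Sox gene itself has a heavy outline. Sox21a and Sox21b are filled and adjacent, D is filled on the other side of the open lncRNA:CR45887, SoxN is open with 5 of 10 neighbours filled, and the rows of Sox14, Sox100B and Sox15 hold no filled square.

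Over all 8 members, 25 different genes that are not Sox genes lay within 2 annotated genes, and 3 of them were listed (12.0%, where 8.45% of all annotated genes were listed). These were Fbp1 beside Sox21a and Sox21b, and CG42710 and asRNA:CR45260 beside SoxN. With 5 genes on each side, 8 of 61 were listed, and ey near Sox102F was among them. By chromosome arm, all 3 Sox genes of 3L and the 1 of chromosome 4 were listed, and none of the 2 on 2R, the 1 on 2L or the 1 on 3R was. The 3 genes of 3L are the neighbours counted above as 1 locus. The listed share of protein-coding genes was 9.09% on 3L, 8.28% on 2R, 7.59% on 3R and 6.29% on 2L. On chromosome 4, 8 of 80 protein-coding genes were listed. Whether the listing of Sox genes differs between arms was not tested.

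The HMG box is shared by other chromatin and transcription factors, and 2 of 12 such genes outside the Sox family were listed (16.7%, where the length deciles give 1.44). The listed pair was HmgD (FBgn0004362) and HmgZ (FBgn0010228), which encode abundant, small chromosomal proteins and are themselves next to each other. The genes not listed included pan, the TCF factor of the Wnt pathway, cic, a repressor controlled by receptor tyrosine kinases, Bap111, a subunit of the Brahma remodelling complex, and Ssrp, a subunit of the histone chaperone FACT. The remaining unlisted genes were bbx, Dsp1, TFAM, tHMG1, tHMG2 and Hmg-2. Whether these genes differ in listing from the Sox family, with its 4 of 8, was not tested.

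Genes known to act with group B Sox factors in the neuroectoderm, or downstream of them, were listed for 6 of 13 members (46.2%, where the length deciles give 1.98). Listed were vnd (FBgn0261930), a homeobox gene of the ventral column, sim (FBgn0004666), the master regulator of the midline, and sli (FBgn0264089), the midline repellent. Also listed were l(1)sc (FBgn0002561) and ase (FBgn0000137), genes of the achaete-scute complex, and pros (FBgn0004595), which encodes the profiled factor itself. The fusion constructs carry Prospero coding sequence too, and how much of the pros entry comes from binding at the gene was not tested. The homeobox genes ind and Dr of the other columns, vvl, a POU factor that partners D, the POU genes nub and pdm2, and the proneural genes ac and sc were not listed.

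The next list grouped with D the temporal factors and some other regulators of intermediate progenitors and of neuroblasts of the optic medulla. Of its members, 8 of 9 were listed (88.9%, where the length deciles give 1.72). In intermediate progenitors D is known to be followed by grh and ey, and both were listed (FBgn0259211 and FBgn0005558). The zinc finger gene opa (FBgn0003002) and osa (FBgn0261885), a Brahma complex subunit gene, both known to act on the D stage of that series, were listed as well, as was ham (FBgn0045852), which limits progenitor divisions. Of the medulla series, hth (FBgn0001235), ey, slp1 (FBgn0003430) and tll (FBgn0003720) were listed together with D, and slp2 was not. Part of this list was already known to be listed when it was drawn up, so its count is a description and supports nothing else. The other lists were also drawn up with earlier results of these data known, and their counts are descriptions too.

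The contexts of the remaining members gave mixed counts. For Sox14, 3 of 5 genes of dendrite pruning were listed, namely the ecdysone receptor gene EcR (FBgn0000546), Mical (FBgn0053208), the known Sox14 target that encodes an actin-regulating oxidoreductase, and the ecdysone-induced br (FBgn0283451). The receptor partner usp and the ubiquitin ligase gene Cul1 were not. Sox14 was thus unlisted while some genes before and after it in that pathway were listed. EcR, Mical and br stood in length decile 10, with 26.3% listed. The unlisted Sox14 and Cul1 stood in decile 8 (6.81%) and usp in decile 7 (5.30%). Whether place in the pathway bears on listing was not tested. The length deciles give 0.909 for these 5 genes, whose median length was 41.3 kb.

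Of the Wnt genes placed beside Sox15 and Sox102F, 4 of 6 were listed, where the deciles give 1.16. They were the receptor gene fz (FBgn0001085), arm, the beta-catenin (FBgn0000117), and the negative regulators Axn (FBgn0026597) and nkd (FBgn0002945). The ligand gene wg, which Sox15 is known to restrain in the wing hinge, and pan were not listed. For Sox21a, 2 of 7 genes of gut progenitors were listed, the Notch ligand Delta (FBgn0000463) and the receptor Egfr (FBgn0003731), where the deciles give 1.14. The transcription factor genes esg, pnt and GATAe and the cytokine genes upd2 and upd3 were not.

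**Figure D3:**
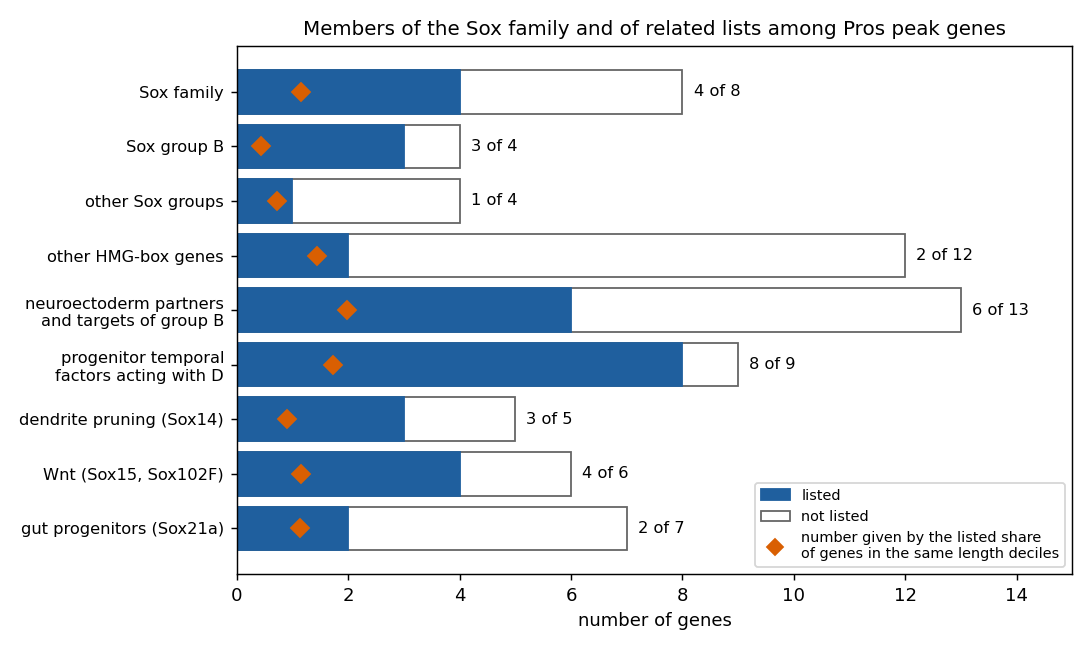
Bars give the number of genes in the Sox family, in its groups and in the related lists, with the filled part for genes listed among Prospero peak genes and the open part for genes not listed. Diamonds mark the number given by the listed share of protein-coding genes in the same length deciles. The filled part passes the diamond in each row. The margin is largest for the temporal factors and other regulators grouped with D (8 against 1.72). It is smallest for the other Sox groups (1 against 0.719). All members and lists were chosen with earlier results of these data known.

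Neighbouring relatives in these lists, picked after the table was seen, were not always listed together. Of slp1 and slp2, which are adjacent, slp1 alone was listed. In the achaete-scute complex l(1)sc and ase were listed and ac and sc were not. HmgZ and HmgD were both listed, like Sox21a, Sox21b and D. Of the pairs nub and pdm2, tHMG1 and tHMG2, and upd2 and upd3, neither member was listed. Between nub and pdm2, between upd2 and upd3, and within the achaete-scute set lay 1 other protein-coding gene. The other sets had none between their members.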

How the data were processed

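The authors' deposited table is a list of names with 3 text columns (gene name, FlyBase identifier and symbol) and 0 numeric columns, and per the file headers it gives genes with Prospero binding peaks. It held 1584 entries, of which 1512 had gene identifiers and 72 transcript identifiers. Not given in the sources used here are the aligner, the peak caller and its threshold, the genome build and how peaks were assigned to genes. A rule based on distance can list several genes for 1 peak. Per the labels' protocols, DNA was digested with DpnI, given adaptors, digested with DpnII and then amplified by PCR.

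Entries were matched to a RefSeq gene table (Release 6 plus ISO1 MT) by current symbol (1457), by an older symbol held by 1 gene only (47) or by hand through the FlyBase identifier (3), and 5 were left unmatched. The matched entries gave 1504 genes. That table supplied gene order, gaps and lengths as properties of genes, and none of its coordinates is printed. Matching by current symbol and the length deciles were tested on simulated lists. Those lists drew their names from the RefSeq gene table itself, so matches by older symbol or by hand were not covered. The members, lists and naming rule (all members of each list, and the nearest neighbours) were chosen with earlier results of these data known. The separate profiles of the groups, comparisons of HMG box sequences and promoter motifs were not analysed here. Python 3.11.15, pandas 2.3.3, scipy 1.17.1 and matplotlib 3.10.9 were used.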

Additional observations from a re-analysis of the deposited data

How the results depend on the processing

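The counts of listed Sox genes (4 of 8), group B genes (3 of 4) and other Sox genes (1 of 4) were the same when the symbol column alone, the gene name column alone, older symbols as well, or gene identifiers alone were used. The RefSeq table holds no FlyBase identifiers, so matching all entries through them was not run, and the 3 entries settled by identifier by hand, Delta among them, include no Sox gene. With neighbouring Sox genes as 1 locus, added after the table was seen, the family count was 2 of 6. That of group B was 1 of 2, since 3 genes became 1, while the other groups kept 1 of 4. No background share per locus was computed for these counts. The background share of 7.76% was 8.45% over all annotated genes and 9.54% over named protein-coding genes, and 5.30%, 6.81%, 12.5% and 26.3% in the length deciles of the members. Listed neighbours were 3 of 25 genes, 3 of 24 with protein-coding genes alone, and 8 of 61 with 5 genes on each side, a wider window. No paired analysis was possible because the table holds no values per replicate, and no replicate could be left out for the same reason. Depth is unknown.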

Other observations

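On chromosome 4, the small chromosome that carries Sox102F, 8 of 80 protein-coding genes were listed, a share near the 7.76% of all protein-coding genes. Apart from Sox102F these were ey and toy, the pair of Pax6 genes, the zinc finger genes dati and zfh2, fuss, a Ski and Sno family gene, Hcf, a chromatin-associated host cell factor, and Asator. The names were read after the table was seen. The TCF gene pan, the other HMG-box gene of this chromosome in the lists, was not among them.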
